A study of Mus musculus with 4 samples.

Results

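The genes described here are 10 members of the insulin-like growth factor (IGF) system: the ligands Igf1 and Igf2, the binding proteins Igfbp2 to Igfbp7, the protease Pappa and its inhibitor Stc2. They were taken by symbol from the processed array table, and each of the 10 had a single probe set that names it alone, among 19938 genes with such a probe set. The arrays measured 4 samples of ATDC5, a mouse chondroprogenitor cell line, with 2 labelled day 0 and 2 labelled day 15. All were kept in DMEM/F12 with fetal bovine serum, glutamine, an antibiotic mix and ascorbic acid. The day 15 samples had in addition received an insulin, transferrin and selenite supplement over 15 days, while the day 0 samples had not. No sample was held for 15 days without the supplement, so time in culture, the supplement and differentiation cannot be told apart. Insulin itself can act on this pathway, and serum carries growth factors of its own, which an array of mouse transcripts does not measure.

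IGF1 and IGF2 are secreted growth factors that act through the type 1 IGF receptor, and in the growth plate they promote the proliferation and enlargement of chondrocytes. Most of each ligand outside cells is held by IGF binding proteins, which keep it from the receptor or store it in the matrix. The protease encoded by Pappa, pregnancy-associated plasma protein A, cuts Igfbp4 and Igfbp5 and thereby frees the ligand, and stanniocalcin-2, encoded by Stc2, inhibits that protease. Igfbp7 is a related protein that binds IGFs only weakly.

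Values are log2 of the deposited intensity plus 1 after quantile normalization across the 4 arrays, and a gene was called where limma's Benjamini-Hochberg adjusted p over all genes was below 0.05. The medians of the deposited arrays lay between 7.87 and 8.06 on the log2 scale, and the median after normalization was 7.95. Of the cell type markers, 5 of 10 chondrocyte and 3 of 5 hypertrophic chondrocyte genes were called higher at day 15 and none lower. Over all genes, 1.30% were called higher. The hypertrophic marker Ihh was lower on both day 15 arrays (−0.37 log2) but not called. No call was made among 4 osteoblast, 5 adipocyte and 6 smooth and skeletal muscle markers, beside 1.72% of all genes. Their median differences were 0.47, −0.24 and −0.09 log2. In each of these lists 1 gene had an unadjusted limma p below 0.05, beside 12.2% of all genes. They were Phex (2.55 log2, limma adjusted p = 0.083), Pparg (−0.97, 0.0695) and Cnn1 (−0.59, 0.221). The lack of a call thus does not show that these markers stayed level. Most macrophage markers followed the replicate number: 7 of 11 were at least 1 log2 higher in replicate 1 than in replicate 2 on both days. Ptprc and Adgre1 were instead higher in replicate 2 on both days. Cd68 was also higher at day 15, by 1.20 log2, but was not called (limma adjusted p = 0.53). The summed deposited intensity of the 11 was 8199 and 8125 on the replicate 1 arrays and 1874 and 2084 on the replicate 2 arrays. None was listed at 0. Endothelial markers stayed between 5.10 and 7.67. None of the 11 macrophage or 5 endothelial markers was called by limma, beside 1.72% of all genes. An unadjusted limma p below 0.05 was reached by 0 and 1 of them, beside 12.2%. Where same-day arrays lay far apart, as for C1qb (standard error 2.20 log2) and Csf1r (1.52), the fit could hardly call a gene. With 2 arrays a day the precision is limited by their number. Nothing in the labels ties the samples to separate cultures, so p-values measure the spread between these samples only, which may be technical. In bulk RNA, fewer cells that express a gene and less of its RNA per cell cannot be told apart.

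Of the 10 IGF genes 2 were called, Igfbp4 higher and Pappa lower at day 15, against 1.72% of all genes (1.30% higher and 0.411% lower). All 10 lay at or above the median level of the genes tested. When only such genes were tested, 282 of 9969 were called, with the same 2 members among them. The members were chosen with earlier results of these data known, so the shares are descriptive. An unadjusted limma p below 0.05 was reached by 4 of the 10 (Igf1, Igfbp2, Igfbp4 and Pappa), against 12.2% of all genes. The difference was at least 1 log2 in either direction for 5 of the 10, against 3.96% of all genes. Both day 15 arrays lay above both day 0 arrays for 6 genes (Igf1, Igf2, Igfbp2, Igfbp4, Igfbp5 and Stc2), which holds for 22.3% of all genes, and below them for 1 (Pappa), which holds for 17.8%. Together 7 of 10 did not overlap, against 40.1%. The median difference of the 10 was 0.48 log2, beside 0.02 for all genes tested.

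**Figure D1:**
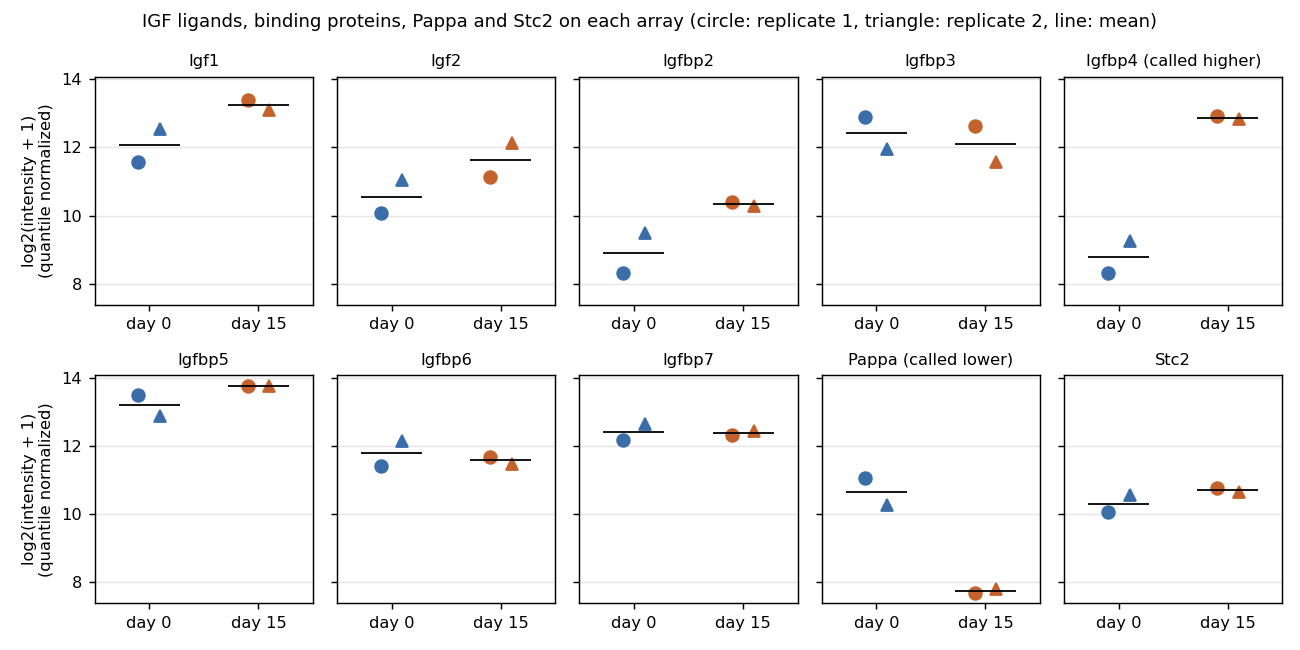
Each panel plots 1 gene as log2(intensity + 1) on the 2 day 0 and the 2 day 15 arrays (circle: replicate 1, triangle: replicate 2, line: mean of the day). Igfbp4 and Pappa show the widest gaps between days (3.58 and 2.45 log2 between the nearest arrays). Levels of different genes come from different probes and are not comparable.

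Igf1, a main growth-promoting ligand of postnatal tissue, read 11.57 and 12.55 at day 0 and 13.40 and 13.11 at day 15. Both day 15 arrays were brighter, and the nearest arrays of the different days were 0.56 log2 apart. The difference of 1.19 ± 0.34 log2 (SE; 95% interval 0.35 to 2.03) did not pass the test over all genes (limma adjusted p = 0.227). Without day 0 replicate 2 it was 1.67 and passed (limma adjusted p = 0.0494), and without day 0 replicate 1 it was 0.70 (limma adjusted p = 0.458). On the replicate 2 arrays alone, where most macrophage markers were lower, the difference was 0.56, and on the replicate 1 arrays 1.82. The part of macrophage RNA in the Igf1 values was not tested.

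Igf2, the ligand of fetal growth, which is transcribed from the paternal allele, had day 0 values of 10.09 and 11.04 and day 15 values of 11.13 and 12.13. The days barely separated, with 0.09 log2 between the higher day 0 and the lower day 15 array. Replicate 2 was the brighter array on both days, by 0.95 and 1.00 log2. The difference between days was 1.07 ± 0.44 log2 (SE; 95% interval −0.01 to 2.14) and was not called (limma adjusted p = 0.415). It was 1.04 between the arrays numbered 1 and 1.10 between those numbered 2, and with the replicate number as a block it was called (1.07 ± 0.14 log2, limma adjusted p = 0.0293). With no block and 1 array left out it was not called. Its values were then 0.58 when day 15 replicate 2 was dropped, 0.60 when it was day 0 replicate 1, 1.54 for day 0 replicate 2 and 1.57 for day 15 replicate 1.

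Igfbp4, a binding protein that mostly restrains IGF action, was the only binding protein called. Its deposited intensities were 297 and 611 at day 0 and 7843 and 7388 at day 15. The day 15 arrays were nearly equal and far above both day 0 arrays, which themselves differed by 0.95 log2 after normalization. On the normalized log2 scale the 4 values were 8.31, 9.26, 12.91 and 12.84. The increase was 4.09 ± 0.32 log2 (SE; 95% interval 3.29 to 4.88), or 17.0-fold (limma adjusted p = 0.00589). It ranks 19 among all increases. The day 0 value of replicate 1, 8.31, lay not far above the median of all probe sets, 7.95, and no detection call was used. The size of the increase is therefore that of the measured intensities only. Leaving out any 1 array kept the call (3.60 to 4.57 log2; limma adjusted p = 0.00193 to 0.0271). On the replicate 2 arrays alone the difference was 3.58. The call did not hold when all 35512 probe sets, named or not, were tested together (limma adjusted p = 0.0653).

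Pappa, the protease that cuts Igfbp4, changed in the opposite direction. Deposited intensities were 2134 and 1196 at day 0 and 195 and 239 at day 15, and both day 15 arrays were far below both day 0 arrays. On the normalized scale the values were 11.06 and 10.25 at day 0 and 7.70 and 7.80 at day 15, so Pappa fell by 2.91 ± 0.29 log2 (SE; 95% interval −3.62 to −2.20), or 7.52-fold lower (limma adjusted p = 0.0121). The day 15 values lay below the median of all probe sets, 7.95, and no detection call was used, so whether they exceed background is not known here and the size of the fall is that of the measured intensities only. The call was lost without day 15 replicate 1 (−2.83 log2, limma adjusted p = 0.0565) and when all probe sets were tested together (0.0932). It held without each of the other 3 arrays (−2.49 to −3.34 log2).

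Igfbp4 and Igfbp3 are genes of 1 family on chromosome 11, the former called and the latter not, and the 250 bases before their RefSeq start sites are shown because a TATA-like element lies near the start of both. The Igfbp4 window is chr11:99040994-99041243 on the plus strand and the Igfbp3 window chr11:7213924-7214173 on the minus strand of GRCm38.p6, written 5′ to 3′ along each gene, and capitals mark TATANA on that strand.
Igfbp4: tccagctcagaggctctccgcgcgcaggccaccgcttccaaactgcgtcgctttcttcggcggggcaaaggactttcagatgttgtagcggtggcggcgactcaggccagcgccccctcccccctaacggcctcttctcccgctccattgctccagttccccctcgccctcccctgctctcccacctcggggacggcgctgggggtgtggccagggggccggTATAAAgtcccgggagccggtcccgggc
Igfbp3: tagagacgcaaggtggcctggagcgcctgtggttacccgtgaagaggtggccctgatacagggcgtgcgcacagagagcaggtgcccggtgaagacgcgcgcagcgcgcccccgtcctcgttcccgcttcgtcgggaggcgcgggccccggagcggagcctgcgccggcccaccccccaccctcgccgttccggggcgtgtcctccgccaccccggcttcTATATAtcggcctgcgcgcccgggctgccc
The marked element starts 28 bases before the start site in Igfbp4 and 30 bases before it in Igfbp3. Searched on both strands (overlapping matches counted once per window), TATANA was found in 3 of the 13 member windows, those of Igfbp3, Igfbp4 and Igfbp6, and in 22.6% of the 32851 windows of all genes. In Igfbp6 it starts 146 bases before the start. The 13 windows belong to the 9 members found in the promoter table, with 4 start sites for Igf2 and 2 for Igfbp2. A match describes the letters only.

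Igfbp3, the main carrier of IGFs in the circulation, was at 12.89 and 11.97 at day 0 and at 12.64 and 11.57 at day 15. The days overlapped in part, and replicate 1 was the brighter array on both, by 0.92 log2 at day 0 and by 1.06 at day 15. Its difference of −0.32 ± 0.44 log2 (SE; 95% interval −1.42 to 0.77) was not called (limma adjusted p = 0.911). The sign turned when day 0 replicate 1 or day 15 replicate 2 was left out (0.14 and 0.21 log2).

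Igfbp2, a binding protein that prefers IGF2, had values of 8.32 and 9.49 at day 0 and 10.39 and 10.27 at day 15. The day 15 arrays were close together and both above day 0. Its difference of 1.43 ± 0.38 log2 (SE; 95% interval 0.49 to 2.37) was the largest among the members that were not called (limma adjusted p = 0.198). Without day 0 replicate 2 the difference was 2.03 log2 and passed (limma adjusted p = 0.0213), and without day 0 replicate 1 it was 0.83 (limma adjusted p = 0.28). On the replicate 2 arrays alone it was 0.78.

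Igfbp5, which binds to matrix as well as to IGFs and is also a Pappa substrate, stood at 13.50 and 12.88 at day 0 and at 13.75 and 13.76 at day 15. The probe set was bright on all arrays, and the day 15 pair differed by 0.01 log2. The difference of 0.56 ± 0.24 log2 (SE; 95% interval −0.04 to 1.15) was not called (limma adjusted p = 0.452), although the days did not overlap. Leaving out day 0 replicate 2 gave 0.25, and leaving out day 0 replicate 1 gave 0.86. Igfbp4 and Igfbp5, both cut by the product of Pappa, thus had differences of 4.09 and 0.56 log2, and the contrast between them was not tested.

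Igfbp6, the binding protein with the strongest preference for IGF2, was at 11.42 and 12.15 at day 0 and at 11.68 and 11.46 at day 15. Igfbp7 was at 12.16 and 12.63 at day 0 and at 12.32 and 12.44 at day 15. For both genes the 2 day 15 arrays lay between the 2 day 0 arrays. Differences were −0.21 ± 0.27 log2 for Igfbp6 and −0.02 ± 0.21 for Igfbp7 (SE), with 95% intervals of −0.89 to 0.46 and −0.54 to 0.51, and neither was called (limma adjusted p = 0.898 and 0.995). These intervals reach less far than the 4.09 log2 of Igfbp4 in either direction.

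Stc2, the Pappa inhibitor, was at 10.05 and 10.55 at day 0 and at 10.75 and 10.66 at day 15. The day 15 arrays were the brighter ones by a narrow margin of 0.11 log2. The difference of 0.41 ± 0.22 log2 (SE; 95% interval −0.13 to 0.95) was not called (limma adjusted p = 0.579). With day 0 replicate 1 left out it was 0.16, and with day 0 replicate 2 left out 0.66.

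**Figure D2:**
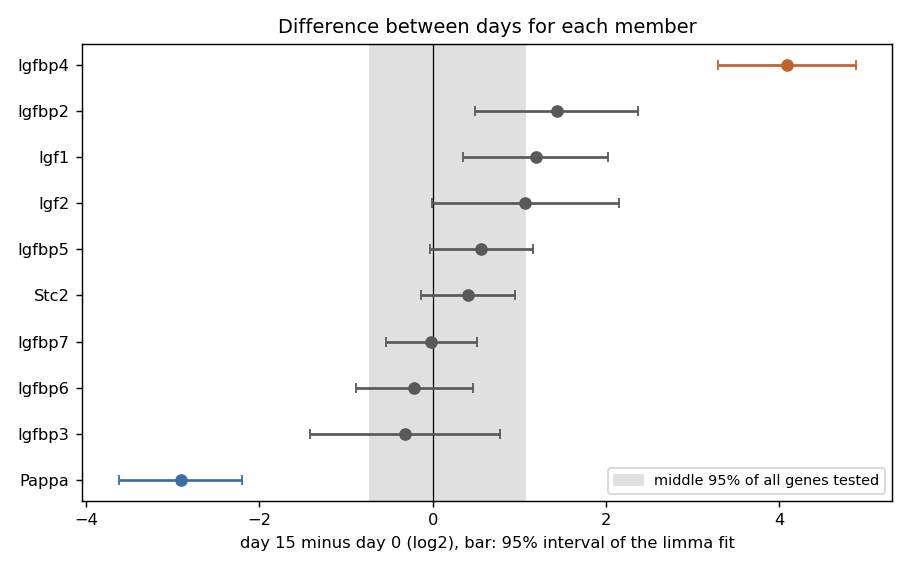
The x axis gives day 15 minus day 0 in log2 for each member, with the 95% interval of the limma fit (orange: called higher, blue: called lower, grey: not called), and the shaded band spans the middle 95% of differences of all genes, −0.73 to 1.06. The intervals of Igfbp4 and Pappa lie wholly outside the band, and those of the 8 others reach into it.

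The day 0 arrays differed from each other more than the day 15 arrays for most of these genes. The day 0 pair was apart by 0.47 log2 (Igfbp7) to 1.17 log2 (Igfbp2), with a median of 0.87 over the 10 members and 0.20 over all genes tested. A gap of at least that of Igfbp7, a limit taken after the values were seen, occurred in 16% of all genes, in 24.0% of the called genes and in 42.8% of the genes with a difference of at least 1 log2, whose median day 0 gap was 0.39. The day 15 pair had a median gap of 0.12 log2 over the members and 0.22 over all genes. In 8 of the 10 the day 0 gap was the wider one, against 46.4% of all genes, and Igf2 and Igfbp3 were the other 2. At day 0, replicate 2 was brighter than replicate 1 for 7 members and dimmer for Igfbp3, Igfbp5 and Pappa. In 7 of the 10 it lay on the side of replicate 1 toward which the day 15 mean differed from the day 0 mean. These are not the same 7, as they include Igfbp3 and Pappa but not Igfbp6 and Igfbp7. The same holds for 48.0% of all genes and 48.0% of the called genes.

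Igf2 and Igfbp3 were the 2 members whose arrays numbered 1 and 2 were at least 0.5 log2 apart in the same direction on both days, a limit set after the values were seen, as were 4.61% of all genes. Their directions were opposite, with Igf2 brighter in replicate 2 and Igfbp3 brighter in replicate 1. The macrophage markers C1qb (11.36 and 6.09 at day 0, 11.11 and 5.80 at day 15, replicates 1 and 2) and Csf1r (10.31 and 6.71, 10.19 and 6.49) were brighter in replicate 1 by far more, and their part in the Igfbp3 values was not tested.

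**Figure D3:**
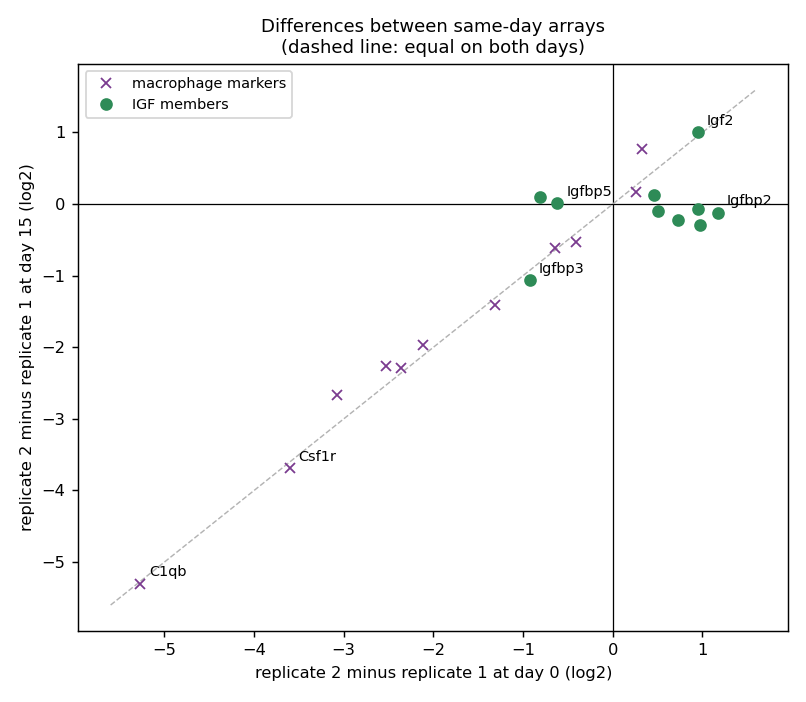
Each point is 1 gene, with replicate 2 minus replicate 1 at day 0 on the x axis and at day 15 on the y axis, in log2 (green: IGF members, purple crosses: the 11 macrophage markers). Igf2 and Igfbp3 lie near the dashed line of equal differences at about 1 log2 above and below zero, the other 8 members lie near zero at day 15, and most macrophage markers lie far down the line.

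**Figure D4:**
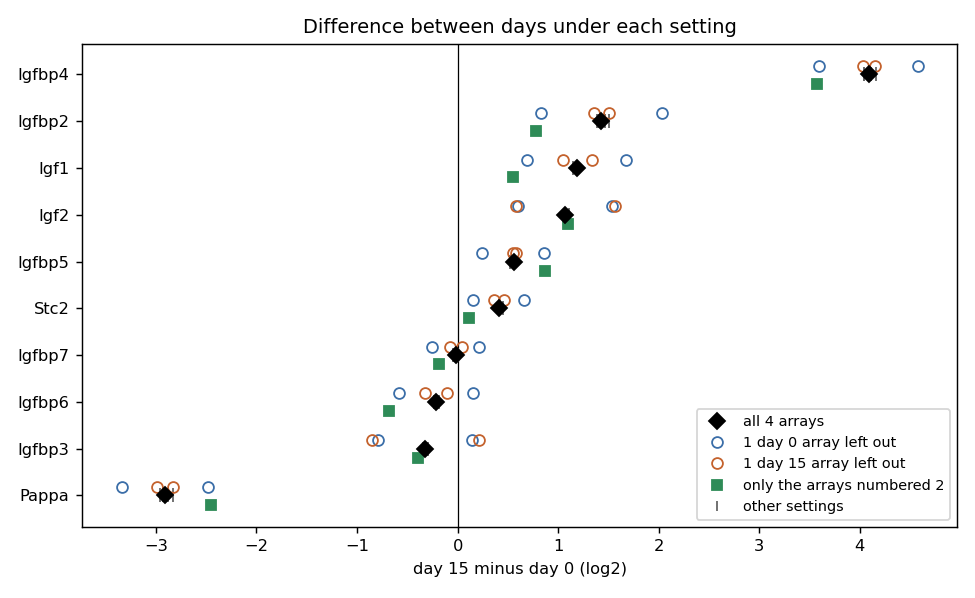
Day 15 minus day 0 in log2 is plotted for each member with all 4 arrays (diamonds), with 1 array left out (circles, blue for a day 0 and orange for a day 15 array), on the replicate 2 arrays alone (squares) and under the other settings (ticks). Igfbp4 stays between 3.58 and 4.57 and Pappa between −3.34 and −2.45, while the circles of Igfbp3, Igfbp6 and Igfbp7 fall on both sides of zero.

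Of 16 measured receptors and adaptors of the pathway 1 was called higher, none lower and 15 not called. Over all genes 1.30% were called higher and 0.411% lower. An unadjusted limma p below 0.05 was reached by 5 of the 16, beside 12.2% of all genes. The median difference of the 16 was −0.05 log2. Grb10, an adaptor that dampens signaling by the insulin and IGF receptors, rose from 6.49 ± 0.16 to 8.91 ± 0.07 (SD, n = 2), by 2.42 ± 0.18 log2 (SE; limma adjusted p = 0.0048), and stayed called with any 1 array left out. The day 0 values of Grb10 lay below the median of all probe sets, 7.95, and within the range of the endothelial markers, so the size of this difference is limited by a level that may be background. Igf1r, the signaling receptor of both ligands, was at 12.23 and 12.24 at day 0 and at 10.69 and 11.57 at day 15. Both day 15 arrays were lower, but the difference of −1.10 ± 0.31 log2 was not called (limma adjusted p = 0.215). Igf2r, which takes up and clears IGF2, differed by 0.93 ± 0.32 log2 (limma adjusted p = 0.329), the insulin receptor Insr by −0.21 ± 0.20 (0.835) and the receptor substrate Irs2 by −1.76 ± 0.42 (0.157).

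Among 12 secreted or membrane proteins that carry an IGFBP-type domain or partner with the binding proteins, 1 was called higher and 1 lower. The shares of all genes called were 1.30% higher and 0.411% lower. An unadjusted limma p below 0.05 was reached by 4 of the 12, beside 12.2% of all genes. The median difference of the 12 was 0.01 log2. Kazald1, a secreted protein with an IGFBP-type domain first described in bone, rose by 1.92 ± 0.18 log2 (SE; limma adjusted p = 0.0095), from 8.57 and 8.34 to 10.43 and 10.32. Crim1, a membrane protein with an IGFBP-type domain that binds bone morphogenetic proteins, fell by 1.79 ± 0.25 log2 (limma adjusted p = 0.0355). That call was lost without day 0 replicate 2 (0.0769), day 15 replicate 1 (0.135) or day 15 replicate 2 (0.0813). The matricellular genes Ccn1 to Ccn6 were not called, and Ccn3 had the widest difference among them (1.46 ± 0.47 log2, limma adjusted p = 0.282).

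None of 19 measured proteases and inhibitors that act on binding proteins, other than Pappa and Stc2, was called by limma, beside 1.72% of all genes. Of the 19, 5 had an unadjusted limma p below 0.05, beside 12.2% of all genes. Their median difference was 0.19 log2. The widest differences were 1.12 ± 0.34 log2 for the complement protease C1s1 (limma adjusted p = 0.257), 0.79 ± 0.19 for the serine protease Htra1 (0.162) and 0.68 ± 0.21 for the membrane metalloproteinase Mmp14 (0.259). Pappa2, the closest relative of Pappa, which cuts Igfbp5, was at 11.75 and 11.77 at day 0 and at 11.25 and 11.50 at day 15, a difference of −0.39 ± 0.18 log2 (limma adjusted p = 0.483). Stc1, the paralogue of Stc2, differed by 0.32 ± 0.26 log2 (limma adjusted p = 0.774).

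Igf2bp1, a fetal protein that binds Igf2 mRNA, was at 10.17 and 10.26 at day 0 and at 9.07 and 9.42 at day 15. Both day 15 arrays were lower, and the difference of −0.97 ± 0.19 log2 (SE) was not called (limma adjusted p = 0.0974). Igf2bp3 differed by −0.15 ± 0.16 log2 (limma adjusted p = 0.861) and the insulin gene Ins2 by 0.04 ± 0.17 (0.985). H19, Igf2os, Igf2bp2 and Ins1 were not analysed here.

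**Figure D5:**
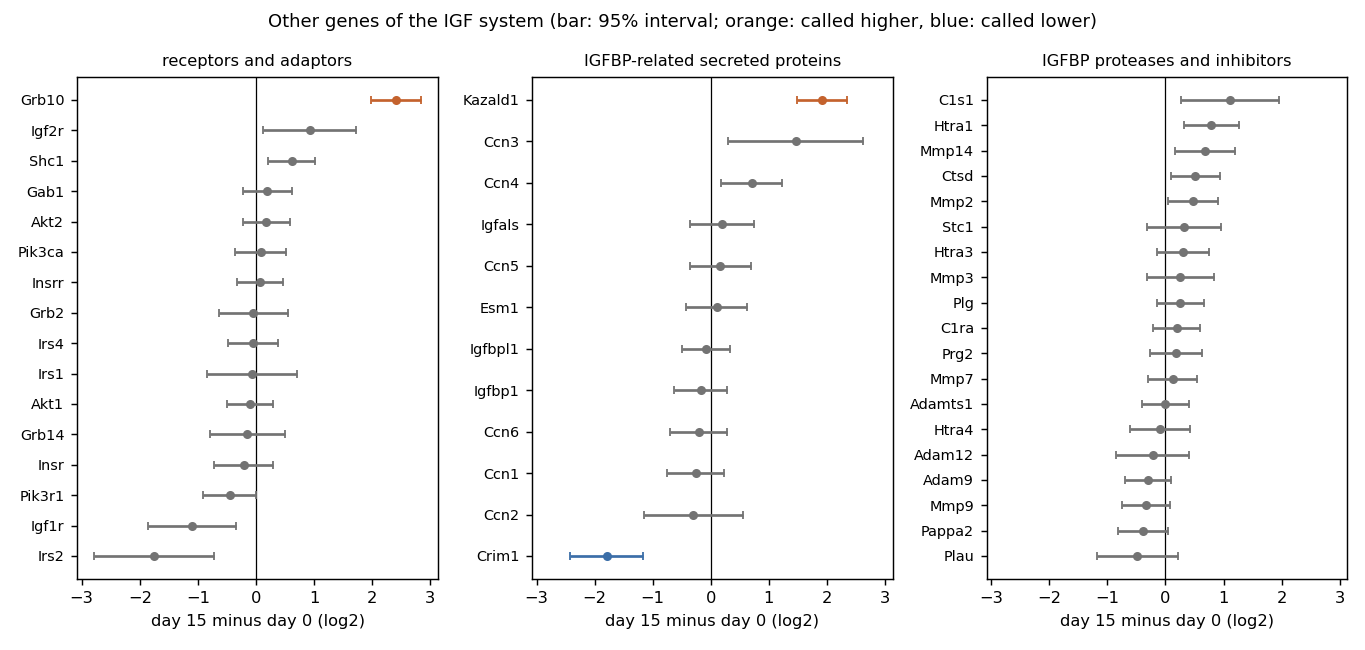
Points give day 15 minus day 0 in log2 and bars the 95% interval for 16 receptors and adaptors, 12 secreted proteins related to the binding proteins and 19 proteases and inhibitors (orange: called higher, blue: called lower). Grb10 (2.42), Kazald1 (1.92) and Crim1 (−1.79) are the called genes.

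By the distance between log2 values centred on each gene's mean, over 4 arrays and among 9708 brighter genes, the pattern nearest to Igfbp4 was that of Ucma (distance 0.09 log2), followed by Col10a1 (0.30) and Gbp8 (0.46). Ucma read 8.89 and 9.89 at day 0 and 13.60 and 13.54 at day 15, so its day 0 arrays differed in the same direction and by about as much as those of Igfbp4. The genes nearest to Pappa were Nlrp2 (0.53), Ankrd1 (0.81) and Prex2 (0.85). With 4 arrays such a likeness is coarse.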

How the data were processed

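Total RNA of 4 ATDC5 samples was labelled with biotin and hybridised to whole-transcript arrays, 1 array for each, per the labels' protocols. The authors deposited 1 linear intensity per probe set and sample, a unit judged from the values; how probes were background-corrected, summarized and normalized is not given in the sources used here, and mm9 is the build in the submitters' processing notes. Of 35512 probe sets, 21789 have 1 gene symbol, 1621 several and 12102 none listed; only the first kind was named, and the brightest probe set per gene was kept. Symbols were updated through gene identifiers (21698 matched, assembly GRCm38.p6). Log2(intensity + 1) was quantile normalized over all probe sets and fitted with limma 3.58.1 in R 4.3.3 (lmFit, eBayes, day as the only term, all 4 arrays), with SE the moderated standard error and SD the spread of 2 arrays. The fit was tested on simulated data with noise drawn independently for each array. In the real data same-numbered arrays deviated together (correlation 0.403), so that test does not show how the fit behaves under such shared deviations.

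The members, lists and tests were chosen with earlier results of these data known. Named genes were all members, the called genes of each list or up to 3 with the widest difference, and the 3 nearest patterns to Igfbp4 and Pappa; Igf1r, Igf2r, Insr, Irs2, Ccn3, Pappa2, Stc1 and the markers C1qb and Csf1r were added after their values were seen. Promoter windows are RefSeq's (GRCm38.p6), matched by symbol, without the bases after the start. A planned description of the members' proteins was not made. Alternatives were other scalings, a pseudocount of 16, a filter on dim genes, a variance trend, other probe set rules, the replicate number as a block and leaving out each array. Values on the replicate 2 arrays alone were added after seeing the data. Plots used matplotlib 3.10.9 (Python 3.11.15).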

Additional observations from a re-analysis of the deposited data

How the results depend on the processing

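Over the 13 other settings with a test, 118 of 130 member values kept their sign and their side of the threshold, 3 lost a call (Igfbp4 once, Pappa in 2 settings), 3 gained one and 6 changed sign. Some settings left every member's difference as it was. They were the filter on dim genes, the variance trend, the mean of probe sets, all probe sets together and the replicate block. No sign could change there, so 118 of 130 overstates how far the signs were tested. Averaging probe sets changed no member value, as each member has a single probe set. The sign changes were those of uncalled genes. Igfbp3 changed without day 0 replicate 1 (0.14 log2) and day 15 replicate 2 (0.21, range with 1 array left out −0.85 to 0.21). Igfbp6 changed without day 0 replicate 2 (range −0.58 to 0.15). Igfbp7 changed on the deposited scaling (0.0042), without day 0 replicate 2 (0.21) and without day 15 replicate 1 (0.045, range −0.25 to 0.21). With all probe sets tested together 74 passed, and 0 members were called higher and 0 lower; more probe sets were tested there, and the calls of Kazald1 (limma adjusted p = 0.0672) and Crim1 (0.165) were lost too. Among genes, 342 were called with all arrays and 174 to 282 with 1 array left out. The number of members called higher was 1 to 3 with 1 array left out and the number lower 0 to 1; the 3 were Igfbp4, Igf1 and Igfbp2, without day 0 replicate 2, and the 0 arose without day 15 replicate 1. Where a day kept 1 array, its spread was taken from the other day. Same-numbered arrays deviated together across genes (correlation 0.403), and 9 of the 11 macrophage markers were higher in replicate 1 on both days. The labels do not say what the number stands for, and 2 pairs are too few here to settle a pairing. With the replicate number as a replicate block 628 genes were called, and 2 members were called higher, Igfbp4 and Igf2 (1.07 log2, limma adjusted p = 0.0293). The causes of these shifts were not tested. Signal over background could not be judged, so dim values such as those of Pappa at day 15 may lie at background.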

Other observations

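The members lie on 7 chromosomes in the RefSeq gene table, and some sit side by side there. Igfbp2 and Igfbp5 are direct protein-coding neighbours on chromosome 1, with differences of 1.43 and 0.56 log2, neither of them called. Igfbp3 adjoins Igfbp1, a binding protein made mainly by the liver, whose difference was −0.17 log2 (limma adjusted p = 0.861). Igf2 adjoins Ins2 (0.04 log2). Of the 18 direct protein-coding neighbours that are not members, 16 were measured. None was called by limma, beside 1.72% of all genes, and 0 had an unadjusted limma p below 0.05, beside 12.2%. With 16 genes, these counts do not show that neighbours changed less than other genes. The differences of the 16 ran from −0.33 to 0.39 log2. Top2a (−0.21) and Tns4 (0.38) lie on either side of Igfbp4, and Tnc (0.06) and Astn2 (−0.12) on either side of Pappa.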
